A study of Mus musculus with 3 samples.

Results

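WNT proteins are secreted ligands that bind Frizzled receptors together with the co-receptors LRP5 and LRP6. In the canonical branch this binding stops the AXIN-containing destruction complex from degrading beta-catenin, encoded by Ctnnb1, which then acts with TCF and LEF factors in the nucleus. SFRP proteins, FRZB and WIF1 bind the ligands outside the cell, and Dickkopf proteins bind the LRP co-receptors. In fat, WNT signalling through beta-catenin is known for holding preadipocytes undifferentiated, and WNT10B is the ligand best known for this in 3T3-L1 cells.

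The genes described here were the 45 of 18194 measured genes whose symbols are those of WNT ligands, Frizzled receptors, SFRP or Dickkopf family members, or are Lrp5, Lrp6, Wif1, Frzb, Axin1, Axin2, Ctnnb1 or Tcf7l2. They were taken from the array annotation by symbol and had 90 probe sets, each naming 1 gene. RNA came from 3 samples of 3T3-L1 cells, a clonal mouse fibroblast line that was differentiated into adipocytes in culture and, per the methods, treated with glucose oxidase for 2 h. Glucose oxidase releases hydrogen peroxide steadily as it oxidises glucose, and no source used here gives its dose. The study used this treatment as a positive control for the transcriptional response to oxidative stress. Untreated cells were not analysed here, so every value is a level after treatment, and no change with treatment and no test of one can be given. The labels do not tell whether the 3 samples were grown separately, and their spread may therefore be only technical. In bulk RNA, fewer cells of a type and less RNA per cell cannot be told apart.

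Levels are log2 of the deposited probe set intensity, and the number of arrays limits their precision. A gene was counted as above background when any of its probe sets exceeded 7.50 in all 3 arrays, the 95th percentile of the mean levels of 83 probe sets for olfactory, vomeronasal and bitter taste receptors. By this count 55.7% of all genes were above background. Passing it does not by itself establish that a transcript was present, since it depends on how well each probe set hybridises. The arrays had median intensities of 126.9 to 127.6, correlated pairwise at r of 0.998 to 0.999 across all probe sets, which are not independent replicates, and none stood apart. The labels name the tissue as preadipocytes and the source as insulin resistant adipose cells, whereas the growth protocol describes differentiated cells. Of 12 measured adipocyte markers, 11 were above background, with means from 5.79 for Lep, the exception, to 14.49 for Adipoq. Of 12 preadipocyte and fibroblast markers, 10 were above background, with means from 5.49 for Cd34, which with Gata3 was not above background, to 13.91 for Col3a1. Dlk1, the gene of the preadipocyte factor PREF-1, was at 13.33, 13.13 and 13.26 in replicates 1, 2 and 3. Markers of cells not expected in the culture also passed in part, with 3 of 8 for macrophages, 2 of 8 for endothelial cells and 3 of 6 for osteoblasts and chondrocytes. The macrophage markers that passed were Lyz2 with a mean of 11.19, Cd14 at 8.83 and Csf1r at 8.70, while the other 5, among them Ptprc, ran from 4.61 to 6.67. The endothelial markers that passed were Kdr at 8.29 and Flt1 at 8.12, and the other 6, among them Pecam1, were at 5.64 or lower. Sp7, a defining factor of osteoblasts, passed at 8.27, as did Sox9 at 8.15 and Col2a1 at 7.92, whereas Ibsp, Acan and Alpl were at 4.62, 6.86 and 7.39. None of these markers was listed at 0, which also held for those below background and so does not tell presence from absence. The part of other cells in the results below was not tested.

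Of the 45 WNT genes, 21 (46.7%) were above background after glucose oxidase, beside the 55.7% of all genes. The families differed widely. Above background were 9 of 10 Frizzled receptors, 4 of 6 ligand-binding inhibitors (SFRP family with Frzb and Wif1), 3 of 4 intracellular members, 1 of 2 LRP co-receptors, 4 of 19 WNT ligands and 0 of 4 Dickkopf genes. No test was made of these counts, which are descriptions. The families also differed in their number of probe sets, and a gene with more probe sets has more chances to pass. Among all genes, 40.5% of those with 1 probe set, 63.6% of those with 2 and 79.5% of those with 3 or more were above background, and for the WNT genes the counts were 2 of 17, 10 of 18 and 9 of 10. Of the ligands, 10 had a single probe set and none of these passed, whereas 9 of 10 Frizzled genes had several. Counted by probe set, 4 of 32 for ligands and 13 of 26 for Frizzled receptors were above background in all arrays, against 46.5% of the 34958 probe sets of all genes.

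**Figure D1:**
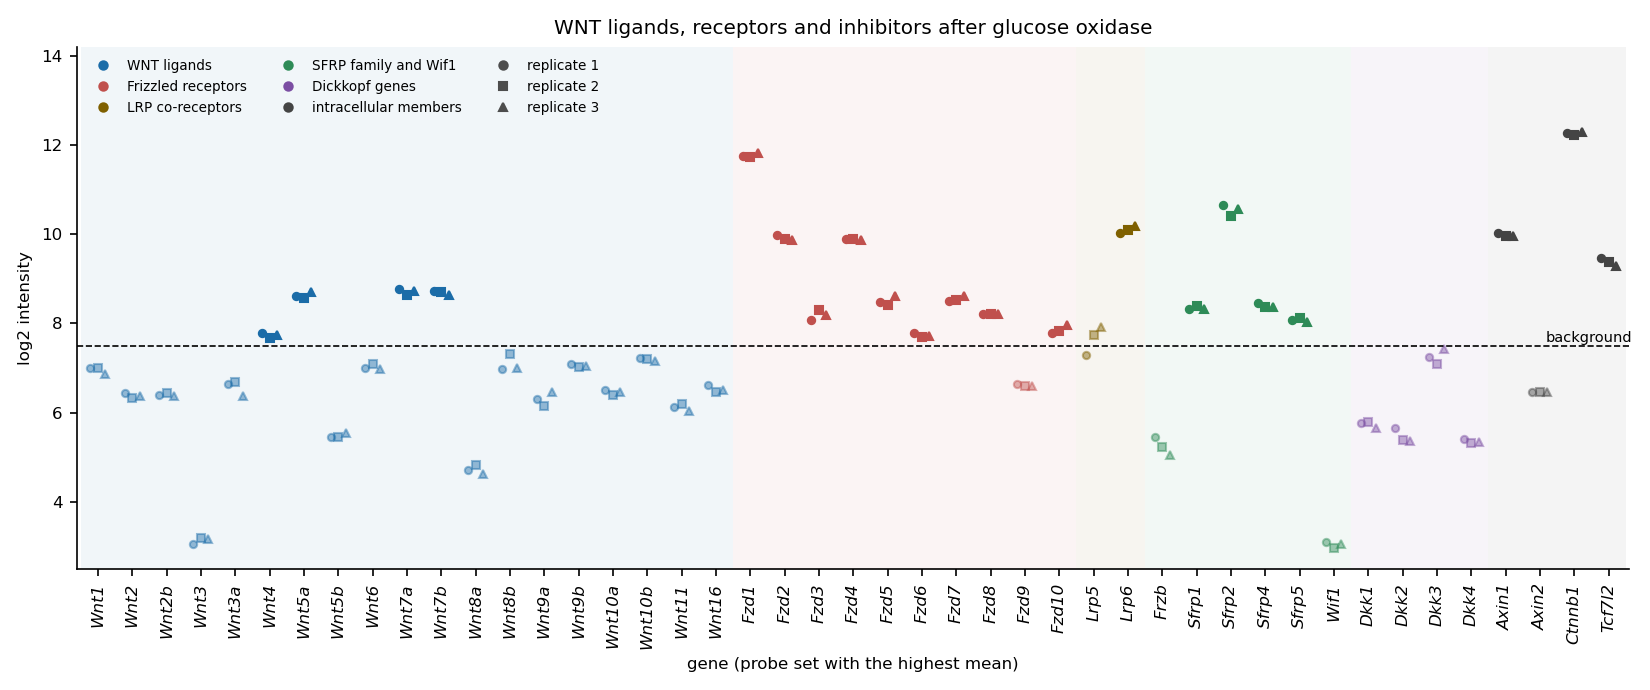
Log2 intensity (y axis) of the 45 WNT genes (x axis, grouped and coloured by role) in the 3 arrays after glucose oxidase, with 1 symbol shape per replicate and paler symbols for genes not above background. The dashed line is background at 7.50. Most Frizzled genes lie above the line and most ligands below it, but probe sets of different genes differ in brightness, so the plot does not rank transcript amounts.

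Among the ligands, Wnt4, Wnt5a, Wnt7a and Wnt7b were above background, each through 1 of several probe sets. Wnt5a, a ligand best known for signalling without beta-catenin, was at 8.61, 8.58 and 8.71 in replicates 1, 2 and 3 (mean 8.63 ± 0.07, SD, n = 3). Its 3 other probe sets averaged 7.33, 6.90 and 6.51, and the nearest of them exceeded background only in replicate 3, at 7.53. Replicate 3 was the highest and replicate 2 the lowest array in all 4 Wnt5a probe sets.

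Wnt7a, which patterns the limb, was at 8.78, 8.65 and 8.73, while its 2 other probe sets averaged 6.88 and 5.09. Wnt7b, which acts in lung and blood vessel development, was at 8.73, 8.70 and 8.64 by 1 probe set and averaged 6.83 by the other. For both genes the passing and the failing probe sets were therefore far apart, and which of them reports the transcript is not shown by these values. Wnt4, needed for kidney and female gonad development, was closest to background among these ligands, at 7.77, 7.66 and 7.74, with its other probe set averaging 6.31. At a background of 8.05, the 99th percentile of the same receptor probe sets, Wnt4 was no longer above it and the other 3 ligands were.

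Wnt10b, Wnt6 and Wnt10a are known for restraining adipogenesis in culture. Wnt10b was at 7.22, 7.21 and 7.16, which brought its mean within 0.31 of background, the nearest of the 15 ligands below it. Wnt6 was at 7.01, 7.08 and 6.97, and Wnt10a at 6.51, 6.40 and 6.46. These 3 genes each lay below the line in every array, as did 15 of the 19 ligands in all, and Wnt10b and Wnt10a had a single probe set. For each of the 3, the replicates differed by no more than 0.11.

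Another pair of ligands were within 0.5 of background. Wnt9b was at 7.10, 7.03 and 7.04, and Wnt8b at 6.97, 7.31 and 7.01, with replicate 2 standing above the others. The canonical ligand genes Wnt1 and Wnt3a had means of 6.95 and 6.57. Wnt2, Wnt2b, Wnt5b, Wnt8a, Wnt9a, Wnt11 and Wnt16 ranged from 4.72 to 6.53 in mean level of the highest probe set. Wnt3 had a mean of 3.13 from a single probe set of a kind that can cross-hybridise with other transcripts.

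Several of the ligands below background are neighbours in the genome. By the RefSeq gene order of assembly GRCm38.p6, used here for names and order only, 4 pairs of WNT ligand genes lie next to each other with 0 protein-coding genes between them. They were Wnt6 with Wnt10a on chromosome 1, Wnt3a with Wnt9a and Wnt9b with Wnt3 on chromosome 11, and Wnt10b with Wnt1 on chromosome 15. None of the 8 genes in these pairs was above background, beside 4 of all 19 ligands, and 5 of the 8 had a single probe set, a class in which 0 of 10 ligands passed. The pairs were looked up after the values had been seen, and no test was made.

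In contrast with the ligands, 9 of 10 Frizzled receptor genes were above background, beside 55.7% of all genes. All 9 had several probe sets. By probe set, 13 of 26 passed, near the 46.5% for all genes. Fzd1 was at 11.76, 11.73 and 11.83 in replicates 1, 2 and 3 (mean 11.77 ± 0.05, SD, n = 3), and its second probe set was also above background, with a mean of 9.05. Fzd2 was at 9.98, 9.90 and 9.86, with 3 of 3 probe sets above background and the others averaging 9.26 and 8.82. Replicate 1 was the highest and replicate 3 the lowest in all 3 of them. Fzd4, which also binds the non-WNT ligand norrin, was at 9.89, 9.89 and 9.88 and at 9.84, 9.84 and 9.78 by its second probe set, whereas the remaining one averaged 6.16. Fzd1, Fzd2 and Fzd4 were thus the Frizzled genes with 2 or more probe sets above background.

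The other 6 Frizzled genes that passed did so through 1 probe set each. Fzd7 was at 8.51, 8.54 and 8.62 and Fzd5 at 8.47, 8.41 and 8.63, with other probe sets averaging 6.79 and 7.04. Fzd8 was at 8.21, 8.21 and 8.20, with an SD of 0.0039 between arrays, against 5.26 on average for its other probe set. Its near-identical values in the 3 arrays were the closest of any of the Frizzled genes.

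Fzd3, which with Fzd6 guides planar cell polarity, was above background through 1 of 6 probe sets, at 8.09, 8.31 and 8.18. A second Fzd3 probe set straddled the line at 7.45, 7.55 and 7.53, and the remaining 4 averaged 4.90 to 6.74. Fzd6 was at 7.78, 7.70 and 7.72, with other probe sets averaging 6.14 and 5.07, and Fzd10 was at 7.78, 7.84 and 7.96, with the other averaging 5.59. Neither was above the 99th-percentile background of 8.05. Fzd9 was the only Frizzled gene below background, at 6.63, 6.59 and 6.60 by its single probe set. The family therefore ran from clear signal in several probe sets to signal near background in one.

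**Figure D2:**
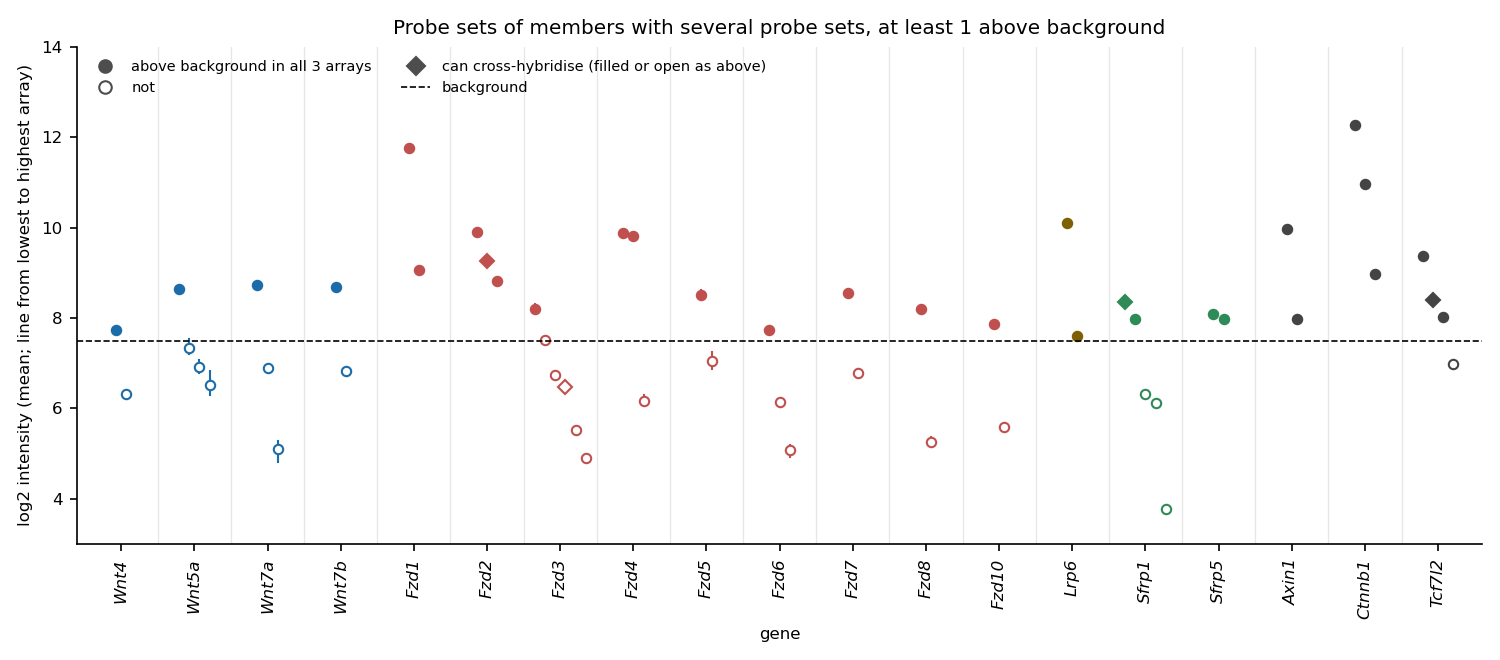
Mean log2 intensity (y axis) of each probe set of the 19 WNT genes (x axis) with several probe sets and at least 1 above background, with a line from the lowest to the highest of the 3 arrays. Filled symbols were above background (dashed line, 7.50) in all arrays, open symbols were not, and diamonds mark probe sets that can cross-hybridise. All probe sets of Fzd1, Fzd2, Lrp6, Sfrp5, Axin1 and Ctnnb1 are filled, while each of the 4 ligands has 1 filled and 1 or more open symbols.

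The LRP co-receptors gave different readings. Lrp6 was at 10.04, 10.09 and 10.19 in replicates 1, 2 and 3, and its second probe set lay just above background at 7.52, 7.58 and 7.70. Lrp5, whose product sets bone mass in mice, had a single probe set at 7.30, 7.73 and 7.93, so that it was above background in replicates 2 and 3 but not in replicate 1. Its SD of 0.32 was the largest among the 45 genes, a 1.55-fold difference in intensity between the highest and the lowest array. Only 15 of all 18194 genes had a larger SD. In each of the 3 LRP probe sets replicate 1 was the lowest array and replicate 3 the highest. Without replicate 1, Lrp5 was above background and the count for the WNT genes was 22.

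Of the secreted inhibitors, the 4 numbered SFRP genes were above background, whereas Frzb of the same family, Wif1 and the Dickkopf genes were not. Sfrp2 was at 10.65, 10.41 and 10.56 (mean 10.54 ± 0.12, SD, n = 3) by its single probe set, with replicate 2 the lowest. Sfrp4 was at 8.45, 8.36 and 8.37. Sfrp5, known in fat as a secreted binder of WNT5A, was above background by both of its probe sets, at 8.07, 8.12 and 8.04 and at 7.92, 8.03 and 7.96. The first probe set straddled the 99th-percentile line of 8.05 and the second lay below it, so that Sfrp5 was not counted at that setting.

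Sfrp1 was above background by 2 of 5 probe sets. One that can cross-hybridise was at 8.33, 8.40 and 8.33 and a specific one at 8.04, 7.98 and 7.90, whereas the other 3 averaged 3.76 to 6.31. Frzb, first known from cartilage, was at 5.45, 5.23 and 5.05, and Wif1, which binds WNT ligands through a domain unlike that of the SFRP proteins, was at 3.10, 2.97 and 3.06. Frzb and Wif1 were below background in every array, unlike the 4 numbered SFRP genes. No Dickkopf gene was above background. Dkk3, the divergent member of the family, came closest, at 7.25, 7.10 and 7.42, and replicate 3 was the highest in both of its probe sets. Dkk1, the classical LRP-binding inhibitor, was at 5.78, 5.79 and 5.66, Dkk2 averaged 5.48 and Dkk4 averaged 5.35.

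Inside the cell, the main components of the canonical branch gave signal in more than 1 probe set. Ctnnb1 was at 12.26, 12.23 and 12.29 in replicates 1, 2 and 3 (mean 12.26 ± 0.03, SD, n = 3), and its 2 other probe sets averaged 10.97 and 8.97. Axin1, the scaffold of the destruction complex, was at 10.02, 9.96 and 9.96, with a second probe set averaging 7.98. Tcf7l2, a TCF factor that partners beta-catenin, was at 9.46, 9.38 and 9.29, with 3 of 4 probe sets above background and the fourth averaging 6.99. In all 4 Tcf7l2 probe sets replicate 1 was the highest array. Axin2, the paralogue of Axin1 that beta-catenin itself induces as a feedback inhibitor, was not above background by either probe set, at 6.45, 6.46 and 6.45 for the higher one and 4.62 on average for the other. Axin1 and Axin2 thus fell on opposite sides of background in all 3 arrays.

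Other genes of the pathway were taken from lists set by role, and 49 of 75 measured genes (65.3%) were above background, beside the 55.7% of all genes. Above background were 12 of 13 TCF/LEF factors and nuclear partners and 13 of 15 Dishevelled and destruction complex genes. With the median over probe sets each of these lists had 8 genes above background, when the share of all genes was 45.2%. Among the nuclear genes were the co-repressor gene Ctbp1 with a mean of 11.78, Tcf7l1 at 11.07, Bcl9l at 9.99 and Pygo2 at 9.93, and Pygo1 was the exception. The destruction complex list held the casein kinase gene Csnk1a1 at 12.30, the tankyrase gene Tnks2 at 11.69 and Csnk1d at 10.78, while Dvl3 and Frat1 were not above background.

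Of the genes of ligand export, surface binding and inactivation, 5 of 7 were above background, beside the 55.7% of all genes. Wls, the carrier that takes WNT proteins to the cell surface, averaged 10.39, and Porcn, the enzyme that attaches their lipid, averaged 8.94. Gpc4, a glypican that holds ligands at the cell surface, averaged 11.69 and Trabd2b, a protease that inactivates WNT proteins, 9.59. Notum and Gpc3 were not above background.

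Of the R-spondin branch, here R-spondins, LGR receptors and receptor turnover genes, 3 of 9 genes were above background, beside 55.7% of all genes. R-spondins raise Frizzled and LRP levels at the membrane. None of the 4 R-spondin ligand genes passed, with means from 4.92 to 7.16, while the receptor gene Lgr4 averaged 10.11, Lgr6 7.89 and the ubiquitin ligase gene Znrf3 7.80. Lgr5 and Rnf43 were not above background. Lgr6 and Znrf3 lay near background, and the count was 1 at the background of 8.05, at one of 7.91 set from keratin-associated protein and defensin genes, and with the median over probe sets. At these settings the shares of all genes were 47.8%, 49.7% and 45.2%. For non-canonical receptors and planar polarity the count was 6 of 12, near the 55.7% of all genes, and 3 with the median over probe sets. The list held the WNT receptor gene Ryk at 10.41, Vangl1 at 9.99, Prickle1 at 9.17 and Daam1 at 8.45, while Ror1, Ror2, Ptk7, Celsr1, Celsr2 and Celsr3 were not above background. Of 7 measured genes in the list of Kremen, LRP4, sclerostin and other modulators, 3 passed, beside 55.7% of all genes. They were Amer1 at 8.95, Kremen1 at 8.82 and Tmem88 at 8.15. With the median over probe sets the count was 2, when the share of all genes was 45.2%. Lrp4, the sclerostin gene Sost, Sostdc1 and Dkkl1 did not pass.

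Genes known as targets of beta-catenin were above background in 9 of 17 cases, close to the 55.7% of all genes. With the median over probe sets the count was 6 of 17, when the share of all genes was 45.2%. The WNT inhibitor gene Apcdd1 averaged 11.30, the cyclin gene Ccnd1 10.28, Ccn4 9.85 and Myc 9.67. The 8 targets not above background were Nkd1, Nkd2, Notum, Rnf43, Sp5, Lgr5, Tnfrsf19 and Bmp4. These levels were not taken as a measure of pathway activity. Without untreated cells, the part of glucose oxidase in any of these levels was not tested.

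**Figure D3:**
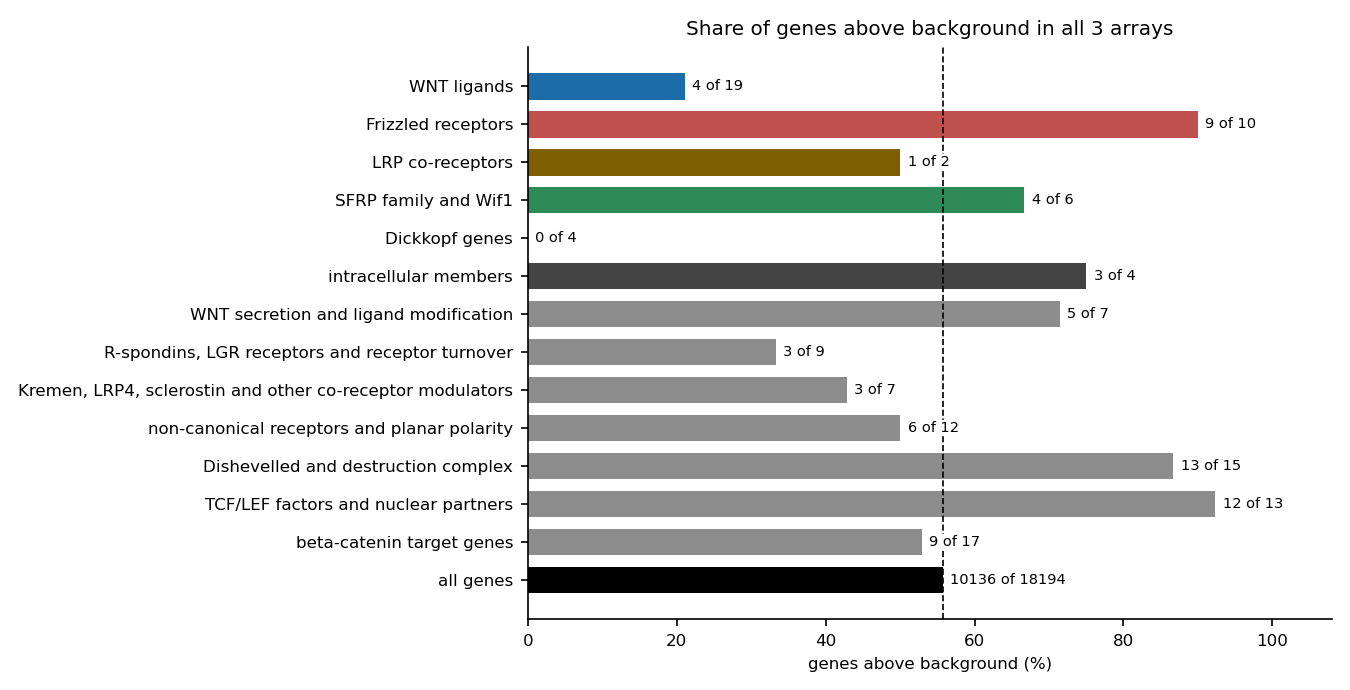
Share of genes above background in all 3 arrays (x axis, percent) for the 6 roles of the WNT genes (coloured bars), 7 lists of other pathway genes (grey bars) and all genes (black bar), with counts beside the bars. The dashed line marks the 55.7% of all genes. The bars for Frizzled receptors (9 of 10) and TCF/LEF factors (12 of 13) pass the line, and those for WNT ligands (4 of 19) and Dickkopf genes (0 of 4) stop short of it.

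Most WNT genes varied little between the arrays, whose spread RMA narrows, with Lrp5 the largest exception at an SD of 0.32. The median SD of the 21 genes above background was 0.057 on the log2 scale, against 0.048 for all 10136 genes above background. For the 24 WNT genes not above background it was 0.068, against 0.078 for all genes not above it. Among those above background the SD ran from 0.0039 for Fzd8 to 0.12 for Sfrp2, and 3 of 21 (14.3%) exceeded 0.1, namely Sfrp2, Fzd3 and Fzd5, against 8.68% of all genes above background. These differences from all genes were small and were not tested.

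No array was highest throughout. Replicate 1 was the highest for 10 of the 21 genes, replicate 2 for 4 and replicate 3 for 7, whereas over all genes above background the shares were 23.9%, 35.5% and 40.5%. The median difference between replicate 3 and replicate 1 was -0.02 for the 21 genes and 0.02 for all genes above background, below the median SD in each case. For 9 WNT genes with 2 or more probe sets above background, the same array was the highest in all of these probe sets in 6 (Fzd1, Fzd2, Lrp6, Sfrp5, Ctnnb1 and Tcf7l2), against 36.9% of the 4003 such genes overall. The 3 others were Fzd4, Sfrp1 and Axin1.

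**Figure D4:**
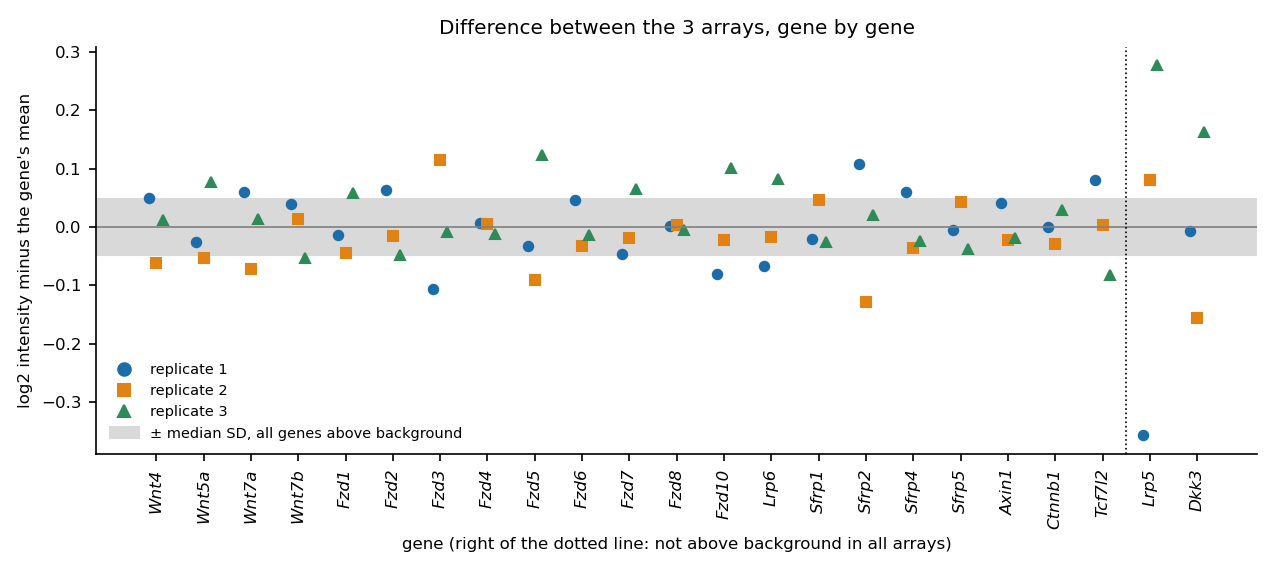
Log2 intensity minus the gene's own mean (y axis) in replicates 1, 2 and 3 for the 21 WNT genes above background and, right of the dotted line, Lrp5 and Dkk3 (x axis). The grey band is the median SD of all genes above background, 0.048, on each side of 0. Most genes stay within 0.1 of their mean, and Lrp5 spans 0.63 between replicates 1 and 3.

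Probe sets of 1 gene often disagreed. Of 28 WNT genes with several probe sets, 13 (46.4%) had one above background in all arrays and another below it in all, near the 44.6% found for all 9012 genes with several. They were Wnt4, Wnt5a, Wnt7a, Wnt7b, Fzd3, Fzd4, Fzd5, Fzd6, Fzd7, Fzd8, Fzd10, Sfrp1 and Tcf7l2. When the median over each gene's probe sets was used in place of any probe set, 13 of the 45 genes were above background, against 45.2% of all genes. The ligand count was then 1 (Wnt7b) and the Frizzled count 5 (Fzd1, Fzd2, Fzd4, Fzd5 and Fzd7), and Wnt4, Wnt5a, Wnt7a, Fzd3, Fzd6, Fzd8, Fzd10 and Sfrp1 were lost. Frizzled receptors, with 5 of 10, still exceeded ligands, with 1 of 19, in number and in share. At this setting the Frizzled share was near that of all genes, and the ligand share was below it.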

How the data were processed

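The deposited values were probe set intensities on a linear scale for 3 arrays of the mouse4302 type. The authors obtained them by RMA background correction and normalization in affyPLM. The sources used here give neither its version, nor the arrays normalized together, nor any later scaling. RMA draws arrays towards one distribution, which narrows the spread between them. Values were log2-transformed here without further normalization.

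Of 45101 probe sets, 34958 named 1 gene in the platform annotation, 932 several and 9211 none, and only the first kind was used. All 45 symbols and Entrez identifiers matched RefSeq (GRCm38.p6). Each gene was represented by the probe set whose mean was highest, and n = 3 throughout. All samples form 1 group, so no test was made. All 45 genes were named by rule, with values per array for those above background or within 0.5 of it, and at most 4 genes per other list. The members and lists were chosen with earlier results of these data known. Beta-catenin targets include Lgr5, Notum, Rnf43, Znrf3 and Lef1 of other lists. Genes of the lists with no such probe set were not analysed here. On data simulated around the observed means, SDs were checked against set values, and calls only for genes more than 1 log2 unit from background. Calls nearer to background were not checked in this way. Alternatives were other background percentiles (99 and 90) and genes, the median of probe sets, removal of those that can cross-hybridise (_s_at and _x_at), centring, and leaving out each array. Python 3.11.15, pandas 2.3.3, numpy 2.4.6 and matplotlib 3.10.9 were used.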

Additional observations from a re-analysis of the deposited data

How the results depend on the processing

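No paired analysis was possible because all 3 arrays belong to a single treatment. The count of 21 WNT genes above background ranged from 17 to 22 under every alternative run but 1. The exception, the median over each gene's probe sets, gave 13, when the share of all genes was 45.2%. That median also gave 1 ligand, 5 Frizzled receptors and 1 gene of the R-spondin branch. It gave 3 genes of non-canonical receptors and planar polarity and 8 of the Dishevelled and destruction complex list. With the 99th percentile as background (8.05), and with 67 probe sets for keratin-associated protein and defensin genes (7.91), 1 gene of the R-spondin branch passed in place of 3. The share of all genes above background was 47.8% at 8.05, where 17 WNT genes passed, and 49.7% at 7.91, where 18 passed. In the main run it was 55.7%. Wnt4, Fzd6 and Fzd10 were lost at both of these settings and Sfrp5 only at 8.05, so signal near background limits these 4 calls. When arrays were left out singly, the count for LRP co-receptors ranged from 1 to 2, the second being Lrp5 without replicate 1. The median SD between arrays, 0.057, ranged from 0.042 to 0.060 on leaving out each array, and was 0.049 under the median over probe sets. Under that median 28 of 45 levels moved by more than 1 SD and 23 by more than 1.5-fold, and 1 of 44 by more than 1 SD without probe sets that can cross-hybridise.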

Other observations

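Among the other pathway genes, Lgr5 and Gsk3b were chosen after their values were seen. Both differed between the arrays more than the WNT genes above background, but Lgr5 was itself not above background. Over all genes, the median SD was 0.078 for those not above background and 0.048 for those above it. Daam1, Lgr6 and Tmem88, all above background, with SDs of 0.145, 0.136 and 0.129, also exceeded the largest SD of those WNT genes, 0.120 for Sfrp2. So did Sost, Lrp4 and Sostdc1, which were not above background, with SDs of 0.135, 0.124 and 0.121. Lgr5, a receptor for R-spondins, was at 7.76, 7.60 and 7.35 in replicates 1, 2 and 3, so that it was above background in 2 of the 3 arrays. Its SD of 0.21 lay between those of Lrp5 (0.32) and Frzb (0.20), the largest among the WNT genes not above background. Gsk3b, a kinase gene of the destruction complex, was at 9.98, 10.15 and 10.35 by the highest of its 6 probe sets, with an SD of 0.18. The spread of its other probe sets is not given here. The SD of the Gsk3b paralogue Gsk3a, by a single probe set, was 0.0036. These SDs are for single probe sets and do not establish a difference between the genes.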
